A study of Homo sapiens with 12 samples.

Results

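Sodium channel genes of 2 families were followed through 3 prostate cell lines. The members are 3 genes for pore-forming subunits of voltage-gated sodium channels (SCN2A, SCN8A and SCN9A) and 4 genes for subunits of the epithelial sodium channel, ENaC (SCNN1A, SCNN1B, SCNN1G and SCNN1D). They were found by gene name in the deposited expression table, and all 7 were present among its 58302 genes. The rule used names and not measured values, but the list of names was chosen with earlier results of these data known.

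BPH-1 (benign prostate epithelial cells), DU145 and PC3 (both PCa cells) are established human lines, each with 4 RNA-sequencing libraries of untreated cells labelled WT. DU145 and PC3 came from ATCC and are labelled as not dependent on androgen. All were grown in DMEM with fetal bovine serum. The benign model is itself 1 immortalised line, and no source says whether the libraries of a line came from separate cultures, so p-values measure only the spread between these libraries. Expression is given as FPKM, the reads of a gene per kilobase of its exons and scaled to the reads of the library. Depth, recovered from the whole-number steps between low values, was 12950672 to 16309570 reads per library.

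Voltage-gated sodium channels open when the membrane depolarises and carry the inward current of the action potential. A single large alpha subunit forms the pore, and small beta subunits modify its gating and take part in cell adhesion. ENaC is not voltage-gated. It lets sodium leak across the apical membrane of kidney, lung and colon epithelium, and is built from alpha, beta and gamma subunits (SCNN1A, SCNN1B and SCNN1G), with delta (SCNN1D) able to stand in for alpha. Serine proteases activate ENaC by cutting its alpha and gamma subunits, aldosterone raises its abundance, and the ubiquitin ligase NEDD4L removes it from the membrane.

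Sequence upstream of the start was at hand for 4 of the 7 members (SCN2A, SCN8A, SCN9A and SCNN1B) in the RefSeq promoter set of GRCh38.p14. Those of SCN8A, SCN9A and SCNN1B, the members among these that were called in a comparison of lines, are printed, 250 bases ending just before the RefSeq start, 5′ to 3′ on the strand of the gene. Capitals mark the letters GGGCGG on either strand, the core of the GC box that Sp1 is known to bind. The windows lie at chr12:51590983-51591232 (plus strand) for SCN8A, chr2:166375945-166376194 (minus strand) for SCN9A and chr16:23302052-23302301 (plus strand) for SCNN1B.
SCN8A: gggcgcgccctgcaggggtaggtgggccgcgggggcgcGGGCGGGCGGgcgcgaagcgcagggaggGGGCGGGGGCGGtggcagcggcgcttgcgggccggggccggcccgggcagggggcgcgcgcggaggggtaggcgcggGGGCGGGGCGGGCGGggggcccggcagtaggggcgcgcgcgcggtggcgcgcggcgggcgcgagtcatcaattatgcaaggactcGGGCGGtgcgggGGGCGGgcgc
SCN9A: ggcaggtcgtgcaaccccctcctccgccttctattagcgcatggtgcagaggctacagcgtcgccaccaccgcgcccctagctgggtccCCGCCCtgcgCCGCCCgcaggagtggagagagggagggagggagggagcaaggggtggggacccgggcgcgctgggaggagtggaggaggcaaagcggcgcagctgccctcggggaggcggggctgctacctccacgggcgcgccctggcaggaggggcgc
SCNN1B: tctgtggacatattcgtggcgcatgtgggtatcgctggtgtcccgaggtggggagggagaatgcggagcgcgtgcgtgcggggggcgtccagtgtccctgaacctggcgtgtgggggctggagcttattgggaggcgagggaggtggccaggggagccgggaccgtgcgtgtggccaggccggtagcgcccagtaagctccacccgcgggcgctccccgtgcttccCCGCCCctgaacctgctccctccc
The SCN8A window held 45 CG pairs and 85.6% G or C, and 99.6% of 35116 promoters of this length had as few CG pairs or fewer. SCN9A and SCNN1B held 22 CG pairs each. GGGCGG occurred 9 times upstream of SCN8A, overlaps counted, 2 times upstream of SCN9A and once upstream of SCNN1B, and 42.6% of all promoters held it. The starts listed for SCN2A are 2, with 1 CG pair in each window, no GGGCGG in either, and TATAAA 2 times in the window of the second, a motif in 10.7% of promoters. These are matches of letters in 1 window per start, and nothing was measured at these sites.

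Some libraries stand apart from their labels. In DU145, replicates 1 and 2 held 13 leukocyte genes (CXCR1, FCGR3B, LYZ, MNDA and PTPRC among them) with at least 50 reads each, and replicates 3 and 4 held fewer than 3 reads of each. All 4 BPH-1 libraries held them as well. Without S100A8 and S100A9, which epithelial cells also make, the FPKM of the other 11 summed to 20.5 to 28.1 in BPH-1, to 21.5 and 23.2 in DU145 replicates 1 and 2, and to at most 0.43 in a PC3 library. In DU145 replicates 1 and 2, SCN9A, SCN2A and SCNN1G had 0 reads and SCNN1A was the lowest of all 12 libraries. The source of these transcripts, mixed or carried-over material included, and its part in the sodium channel values were not tested. A trend along GC content also split the DU145 libraries. Genes of low GC content (up to 42.3%, the first quartile) stood above those of high GC content (from 56.4%, the last quartile) by 0.65 and 0.42 (medians, log2 against the mean of the line) in replicates 2 and 4, and below them by 0.38 and 0.70 in replicates 1 and 3. PC3 replicate 4 had them below by 0.44.

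The labels were checked against cell type markers. All 5 epithelial markers passed 3 reads in each line. The 4 basal markers (TP63, KRT5, KRT14 and KRT15) summed to an FPKM of 299 to 427 in BPH-1, at most 1.16 in DU145 and at most 2.43 in PC3. Of 7 luminal prostate markers, KLK3 was at 0 in every library and 5 (HOXB13 included) were at 0 in all DU145 libraries. The luminal markers summed to an FPKM of 72.9 to 85.4 in PC3, 5.9 to 8.2 in BPH-1 and 4.9 to 8.7 in DU145. HOXB13 had the highest mean of them over the 12 libraries. Of 8 neuronal markers, 4 passed 3 reads in BPH-1, 5 in DU145 and 4 in PC3, with the neurofilament gene NEFL the most abundant and STMN2 at 0 everywhere. Of 5 neuroendocrine markers, 2 passed 3 reads in BPH-1, 2 in DU145 and 1 in PC3. ENO2 was the most abundant of them, and INSM1 was at 0 in all 12 libraries. Their summed FPKM was 2.58 to 3.8 in BPH-1, 2.19 to 3.97 in DU145 and 4.62 to 7.6 in PC3. The summed FPKM of 5 fibroblast markers was at most 3.98, that of 3 endothelial markers at most 2.28 and that of 4 immune markers at most 2.5.

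The 3 lines carried different sets of sodium channel transcripts. PC3 was the line with beta and gamma ENaC, BPH-1 had the most alpha ENaC and SCN9A, and both PCa lines had more SCN8A and delta ENaC than BPH-1. In PC3 against BPH-1, all 7 members were tested and 6 passed an adjusted p under 0.05 (limma on log2(FPKM + 1), Benjamini-Hochberg over 16345 genes), against 67.6% of all genes tested. Higher in PC3 were 4 members (27.2% of all genes were) and lower were 2 (40.5%). The libraries of both lines did not overlap for 6 members (64.5% of all genes). DU145 against BPH-1 had 4 members tested, all 4 called, with 62.6% of 17070 genes called. Higher in DU145 were 2 (30.3%) and lower were 2 (32.3%), and the libraries did not overlap for these 4 or for SCN2A, which was not tested (59.4%). PC3 against DU145 had 5 tested and 2 called, both higher in PC3, with 48.3% of 16209 genes called and 20% of them higher. The libraries did not overlap for 3 of the 5 (46.5%). So large a share of all genes differed that a count of members is no result about them. SCNN1B and SCNN1G entered the tests only through PC3, and SCN9A only through BPH-1, so for them a difference was built into the filter and their p-values are no independent support. The same holds for other genes near 0 in one line, SCN4B, NR3C2, FXYD3 and TMPRSS11E among them. The median log2 fold change of tested members was 0.94 in PC3 against BPH-1, 0.28 in DU145 against BPH-1 and 0.24 in PC3 against DU145. The medians of all genes were -0.13, -0.03 and -0.05. Each median of the members includes genes whose direction was built into the filter, so it is no independent support for a shift.

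**Figure D1:**
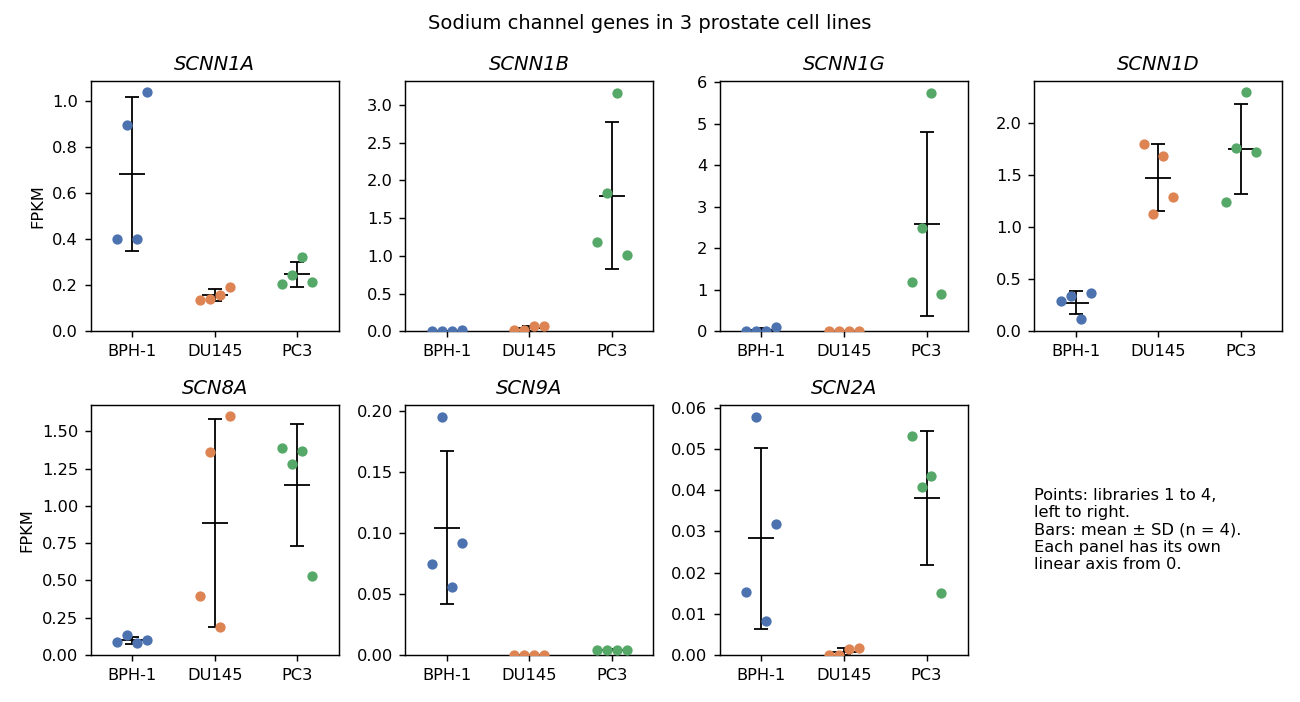
FPKM of the 7 sodium channel genes (vertical axes, linear from 0, scaled per gene) in BPH-1, DU145 and PC3, with a point for each library (replicates 1 to 4 from left to right) and bars for the mean ± SD (n = 4). SCNN1B and SCNN1G are high in PC3 alone, SCNN1A and SCN9A are highest in BPH-1, and SCN8A in DU145 splits into replicates 2 and 4 above 1.3 and replicates 1 and 3 below 0.4.

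**Figure D2:**
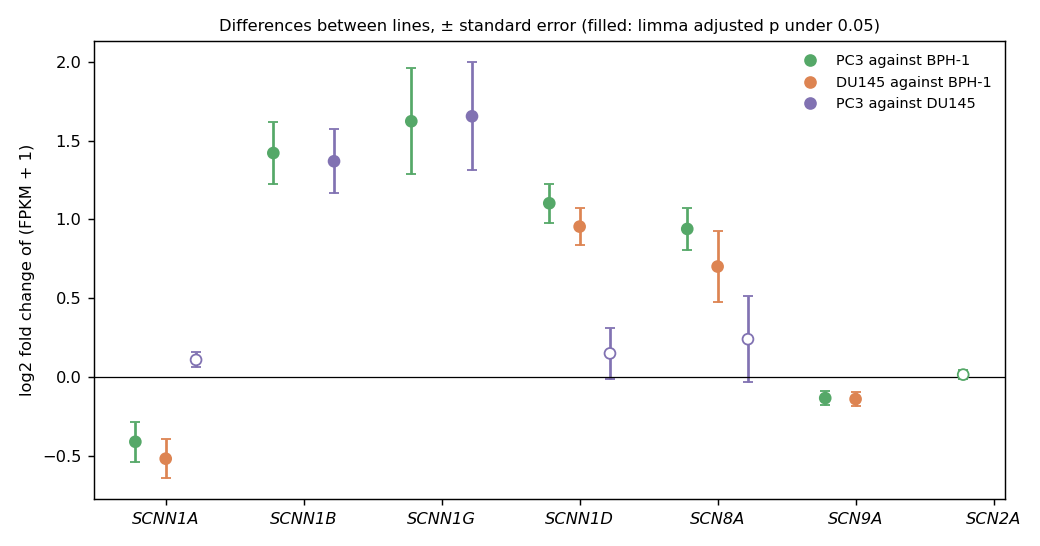
Log2 fold change of (FPKM + 1) of each member in each comparison where it was tested (points, with bars for the standard error, SE), filled where the limma adjusted p was under 0.05. SCNN1G has the highest value in PC3 against both other lines (1.62 and 1.65), and no member was called in PC3 against DU145 apart from SCNN1B and SCNN1G.

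The gamma subunit of ENaC, SCNN1G (ENSG00000166828, chr16:23182715-23216883, plus strand), was a transcript of PC3. Its FPKM in PC3 replicates 1 to 4 was 1.19, 2.5, 5.74 and 0.903 (41 to 279 reads). BPH-1 had 0 reads in replicates 1 to 3 and 5 reads in replicate 4 (FPKM 0.0914), and DU145 had 0 reads in all 4 libraries. Every PC3 library was thus above every library of both other lines, while the PC3 libraries differed among themselves by 6.35-fold. The mean of PC3, 2.58 ± 2.21 (SD, n = 4), was 113-fold that of BPH-1 (114-fold by reads per depth, exact 95% counting interval 48.6 to 353) and at least 46.0-fold that of DU145, taking 3 reads per library as the limit of detection. Without PC3 replicate 3 these were 66.9-fold and at least 27.3-fold, and without BPH-1 replicate 4, which held the only BPH-1 reads, PC3 was at least 46.5-fold above BPH-1. Log2 fold changes were 1.62 (SE 0.34, limma adjusted p = 0.00197) against BPH-1 and 1.65 (SE 0.34, limma adjusted p = 0.0034) against DU145. On the log2(FPKM + 1) scale these understate the ratios of weakly expressed genes.

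SCNN1B (ENSG00000168447, chr16:23278231-23381299, plus strand), the beta subunit, was also highest in PC3. Its FPKM in PC3 was 1.18, 1.84, 3.16 and 1.02 (72 to 240 reads). In DU145 it had 1, 1, 6 and 5 reads (FPKM 0.0112 to 0.0710), and BPH-1 had 1 read in all, in replicate 4. PC3 (1.8 ± 0.97, SD, n = 4) was 44.6-fold higher than DU145 (0.0404 ± 0.0337, SD, n = 4), or 47.1-fold by reads per depth with an exact 95% counting interval of 27.3 to 89.1. With a single read in BPH-1, the ratio of PC3 to BPH-1 by reads was 617 with a counting interval of 110 to 24422. Without the library that holds that read, BPH-1 replicate 4, PC3 was at least 50.6-fold higher. These intervals cover counting error only. The log2 fold change was 1.42 (SE 0.20, limma adjusted p = 0.00016) against BPH-1 and 1.37 (SE 0.20, limma adjusted p = 0.000506) against DU145. In DU145 against BPH-1 the libraries overlapped, the gene did not pass the filter, and an exact two-sided permutation test gave p = 0.0857.

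Within PC3, both subunits had their highest value in replicate 3 and their lowest in replicate 4. The ratio of gamma to beta FPKM was 1.0, 1.36, 1.82 and 0.889 in replicates 1 to 4, so SCNN1G varied more between PC3 libraries (coefficient of variation 85.8%) than SCNN1B did (54.1%). SCNN1A, the alpha subunit, varied by 21.5% in the same libraries.

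Alpha ENaC, SCNN1A (ENSG00000111319, chr12:6346843-6377730, minus strand), was highest in BPH-1. Its FPKM there was 0.398, 0.894, 0.400 and 1.04 (95 to 251 reads). DU145 had 0.136, 0.139, 0.159 and 0.193 (34 to 40 reads), and PC3 had 0.205, 0.245, 0.322 and 0.215 (41 to 69 reads). No library of either PCa line reached the lowest BPH-1 library, and BPH-1 replicates 2 and 4 were more than 2-fold above replicates 1 and 3. The mean of BPH-1, 0.683 ± 0.333 (SD, n = 4), was 4.36-fold that of DU145 (log2 fold change of DU145 against BPH-1 -0.52, SE 0.12, limma adjusted p = 0.0044) and 2.77-fold that of PC3 (-0.41, SE 0.13, limma adjusted p = 0.0152). PC3 and DU145 libraries did not overlap either, with PC3 the higher (0.246 ± 0.053 against 0.157 ± 0.026, SD, n = 4 each), and an exact two-sided permutation test gave p = 0.0286, the smallest that 4 libraries against 4 allow. The limma adjusted p of that difference was 0.0893 (log2 fold change 0.11). SCNN1A shares 2686 bases with LTBR on the other strand, and the use of strand in counting is not given in the sources used here. LTBR had a mean FPKM of 12 in BPH-1, 12.9 in DU145 and 15.7 in PC3. Whether its reads entered the SCNN1A values was not tested.

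The delta subunit, SCNN1D (ENSG00000162572, chr1:1280436-1292029, plus strand), was low in BPH-1, with an FPKM of 0.288, 0.336, 0.116 and 0.364 (13 to 41 reads). DU145 had 1.81, 1.13, 1.69 and 1.29, and PC3 had 1.24, 1.76, 2.30 and 1.72. All 8 libraries of the PCa lines were above all 4 of BPH-1, and the PCa lines overlapped. The mean was 5.36-fold higher in DU145 (1.48 ± 0.32, SD, n = 4, log2 fold change 0.95, SE 0.12, limma adjusted p = 7.26e-05) and 6.36-fold higher in PC3 (1.76 ± 0.43, SD, n = 4, log2 fold change 1.10, SE 0.12, limma adjusted p = 4.06e-05) than in BPH-1 (0.276 ± 0.111, SD, n = 4). Between PC3 and DU145 the log2 fold change was 0.15 (SE 0.16, limma adjusted p = 0.487).

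The make-up of the ENaC transcripts differed by line. The FPKM of the 4 subunits summed to 0.985 ± 0.462 in BPH-1, 1.68 ± 0.32 in DU145 and 6.38 ± 3.62 in PC3 (SD, n = 4 each). In BPH-1, SCNN1A made up 69.3% ± 8.3 of this sum and SCNN1D 29% ± 8.9. In DU145, SCNN1D made up 88.0% ± 3.8 and SCNN1A 9.62% ± 2.46. In PC3, SCNN1G made up 35.9% ± 11.3, SCNN1D 31.2% ± 10.4, SCNN1B 28.4% ± 2.0 and SCNN1A 4.40% ± 1.31 (SD, n = 4). In single PC3 libraries SCNN1D led in replicates 1 and 4 and SCNN1G in replicates 2 and 3, and without replicate 3 SCNN1D (35.0%) led SCNN1G (31.3%) on average. PC3 was therefore the line in which beta and gamma were detected in every library beside alpha and delta. The shares rest on FPKM per summed exon length as deposited. With exons merged, SCNN1A made up 77.1%, 13.6% and 7.99% in BPH-1, DU145 and PC3, and SCNN1D (38.6%) took the place of SCNN1G (25.6%) as the leading subunit of PC3.

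**Figure D3:**
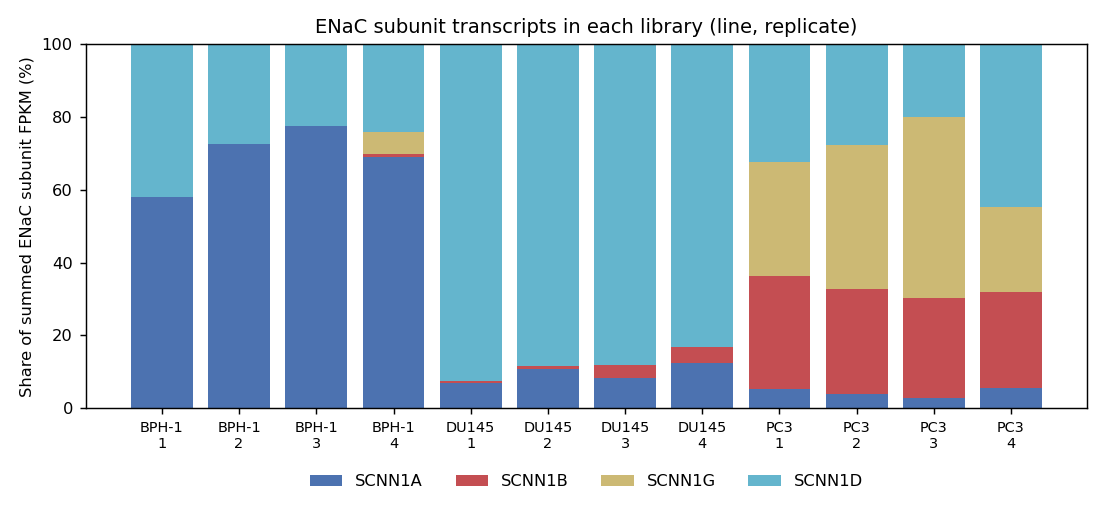
Share of the summed FPKM of the 4 ENaC subunits (vertical axis, %) that each subunit takes in each of the 12 libraries (bars, labelled by line and replicate). SCNN1A leads in every BPH-1 library and SCNN1D in every DU145 library, and SCNN1B and SCNN1G together take more than 45% in each PC3 library.

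SCNN1G and SCNN1B lie next to each other on chromosome 16, 61347 bases apart and on the same strand. Of the 13 other protein-coding genes within 500 kb of the pair, 10 were tested in PC3 against BPH-1, of which 0 rose and 7 fell (limma adjusted p under 0.05; 27.2% and 40.5% of all genes tested rose and fell). The nearest on each side are USP31, a deubiquitinase gene 33.5 kb before the pair, and COG7, a Golgi transport gene 7.19 kb after it. USP31 had a mean FPKM of 5.03 in BPH-1, 3.13 in DU145 and 1.90 in PC3 (PC3 against BPH-1 log2 fold change -1.07, limma adjusted p = 0.00032). COG7 had 3.50, 2.96 and 2.24 (-0.48, limma adjusted p = 0.00286). In PC3 against DU145, 9 neighbours were tested, of which GGA2, a Golgi sorting gene, was higher in PC3 (mean FPKM 4.66 against 2.05, log2 fold change 0.89, limma adjusted p = 0.000743) and 1 was lower (20% and 28.3% of all genes tested were). GGA2 was named after its values were seen.

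**Figure D4:**
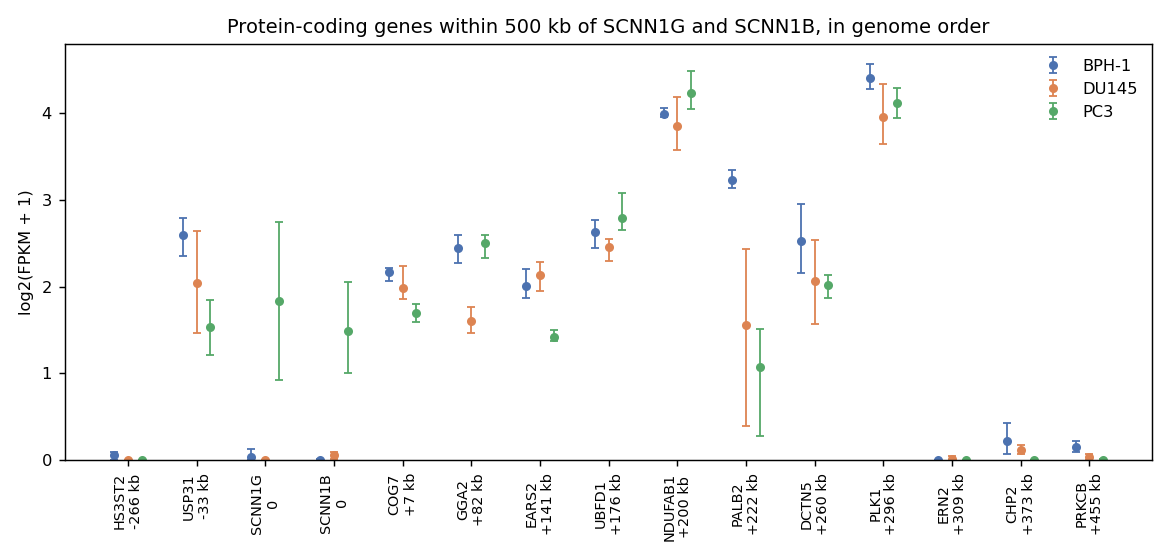
Log2(FPKM + 1) (vertical axis) of the protein-coding genes within 500 kb of SCNN1G and SCNN1B in genome order, with the distance from the pair in kb under each name. Points are the log2 of the mean FPKM + 1 of each line and bars run from its lowest to its highest library. SCNN1G and SCNN1B are near 0 in BPH-1 and DU145 and above 1 in PC3, and USP31 and COG7 are lower in PC3 than in BPH-1.

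Among the voltage-gated alpha subunits, SCN8A (Nav1.6, ENSG00000196876, chr12:51590266-51812864, plus strand) was the most abundant in both PCa lines. It is best known as the channel of the axon initial segment and the nodes of Ranvier. BPH-1 had an FPKM of 0.0875, 0.131, 0.0773 and 0.103 (24 to 40 reads). DU145 had 0.398, 1.36, 0.185 and 1.60 (57 to 444 reads), and PC3 had 1.39, 1.28, 1.37 and 0.533 (138 to 379 reads). Every library of the PCa lines was above every BPH-1 library, but DU145 spread over 8.68-fold and covered the whole range of PC3. PC3 (1.14 ± 0.41, SD, n = 4) was 11.5-fold above BPH-1 (0.0996 ± 0.0234, SD, n = 4), with a log2 fold change of 0.94 (SE 0.13, limma adjusted p = 0.000188). DU145 (0.886 ± 0.700, SD, n = 4) was 8.90-fold above BPH-1, with a log2 fold change of 0.70 (SE 0.22, limma adjusted p = 0.0202).

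The DU145 libraries with high SCN8A, replicates 2 and 4, were those with raised low-GC genes, and PC3 replicate 4, the lowest of its line, was the one with lowered low-GC genes. SCN8A had a GC content of 47.0% in its longest transcript, between the quartile limits of that trend. The part of the GC trend in SCN8A was tested only by dividing the trend out, which left a log2 fold change of 0.57 in DU145 (limma adjusted p = 0.0245) and 0.79 in PC3 (limma adjusted p = 0.000236) against BPH-1. With replicates 1 and 3 as the only DU145 libraries the value was 0.23 (limma adjusted p = 0.0209), and with replicates 2 and 4 only it was 1.17 (limma adjusted p = 2.27e-05). Without replicate 2 alone it was 0.57 with an adjusted p of 0.0516 (limma), and with all libraries but no filter on low values the adjusted p was 0.0575 (limma), so the call in DU145 lay near the threshold. PC3 against DU145 gave 0.24 (SE 0.27, limma adjusted p = 0.507), or 0.71 (limma adjusted p = 0.0256) without DU145 replicates 2 and 4 and -0.23 (limma adjusted p = 0.383) without replicates 1 and 3. The order of the PCa lines in SCN8A therefore depended on which DU145 libraries were used.

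SCN9A (Nav1.7, ENSG00000169432, chr2:166195185-166375993, minus strand), known for its part in pain-sensing neurons, was a transcript of BPH-1. Its FPKM there was 0.0744, 0.195, 0.0554 and 0.0919 (20, 52, 15 and 25 reads). DU145 had 0 reads in all 4 libraries and PC3 had 1 read in each. No PCa library passed the limit of 3 reads. BPH-1 (0.104 ± 0.063, SD, n = 4) was at least 9.24-fold above DU145 and 24.2-fold above PC3 by reads per depth (exact 95% counting interval 9.20 to 90.5). The log2 fold change was -0.14 against BPH-1 in both PCa lines, with a limma adjusted p of 0.0173 in DU145 and 0.0169 in PC3. Leaving out any of the 4 pairs of DU145 libraries tried gave the same -0.14 with adjusted p-values of 0.0553 to 0.0811 (limma), fewer libraries being in those fits. The noncoding gene AC010127.1 on the other strand shares the locus. Its highest BPH-1 library held 8 reads, and it had 0 in all libraries of DU145 and PC3.

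SCN2A (Nav1.2, ENSG00000136531, chr2:165194993-165392310, plus strand), a main sodium channel of the brain, was low in all lines. BPH-1 had 11, 41, 6 and 23 reads (FPKM 0.00833 to 0.0579) and PC3 had 32, 26, 28 and 9 (FPKM 0.0150 to 0.0532), with overlapping libraries and a log2 fold change of 0.01 (SE 0.03, limma adjusted p = 0.704). DU145 had 0, 0, 1 and 1 reads and lay below every library of both other lines. By reads per depth, BPH-1 was 40.2-fold above DU145 (exact 95% counting interval 10.8 to 338) and PC3 54.5-fold (14.7 to 457). By mean FPKM these ratios were 37.7 and 50.8, or 60.9 and 81.9 without DU145 replicate 4, and BPH-1 was 24.6-fold above DU145 without BPH-1 replicate 2. SCN2A did not pass the filter in comparisons with DU145. An exact two-sided permutation test gave p = 0.0286 for both, the smallest that 4 libraries against 4 allow. SCN2A overlaps SCN3A on the other strand, which had at most 8 reads in a library, and the noncoding AC019197.1 on its own strand over 13269 bases. AC019197.1 had a mean FPKM of 0.0263 in BPH-1, 0.00177 in DU145 and 0.0303 in PC3 and at most 6 reads in a library, and reads of the shared stretch cannot be told apart.

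Levels of different genes can be set side by side per kilobase of exon, as FPKM. In BPH-1 the order was SCNN1A (0.683), SCNN1D (0.276), SCN9A (0.104), SCN8A (0.0996), SCN2A (0.0283), SCNN1G (0.0228) and SCNN1B (0.00292). Neighbours did not overlap between SCNN1A and SCNN1D or between SCN8A and SCN2A, and all other neighbours overlapped. In DU145 it was SCNN1D (1.48), SCN8A (0.886), SCNN1A (0.157), SCNN1B (0.0404), SCN2A (0.000751), then SCN9A and SCNN1G at 0. SCNN1D overlapped SCN8A, SCN8A overlapped SCNN1A, and SCNN1A was apart from SCNN1B. In PC3 SCNN1G (2.58), SCNN1B (1.8), SCNN1D (1.76) and SCN8A (1.14) formed an overlapping run, above SCNN1A (0.246), SCN2A (0.0381) and SCN9A (0.00429), which did not overlap each other. Even the most abundant member was thus at a few FPKM. With merged exons, SCN8A stood before SCN9A in BPH-1, and SCNN1D came first in PC3. The overlaps changed too. In BPH-1, SCNN1D was then apart from SCN8A, the next gene, and SCN9A overlapped SCN2A. In PC3, SCN8A then overlapped SCNN1A.

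Several other alpha-type genes of the voltage-gated family were nearly silent. SCN1A, SCN7A and SCN11A had 0 reads in all 12 libraries, SCN10A had 1 read and SCN3A had at most 8 in a library. SCN4A, the skeletal muscle channel, was seen in DU145 only, with 4 and 7 reads in replicates 2 and 3. NALCN, the voltage-insensitive sodium leak channel, was the most abundant of the 8 other alpha-type genes examined. Its FPKM was 0.267 ± 0.090 in BPH-1, 0.841 ± 0.135 in DU145 and 0.705 ± 0.208 in PC3 (SD, n = 4 each), a rise in DU145 (log2 fold change 0.54, limma adjusted p = 0.000314) and in PC3 (0.42, limma adjusted p = 0.00347).

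Of the beta subunits, SCN4B was lower in PC3 than in both other lines. It had 16 to 49 reads in BPH-1, 23 to 28 in DU145 and 0 in every PC3 library, and could differ from PC3 only in that direction under the filter. SCN3B had at most 50 reads in a library and was not called where tested (DU145 against BPH-1, log2 fold change 0.07, limma adjusted p = 0.328). SCN2B had 0 reads in PC3 and at most 9 in a library of the other lines.

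The 10 partners of voltage-gated channels fixed for this account (FGF homologous factors, ankyrins, spectrin and NEDD4 ligases among them) moved in both directions. In PC3 against BPH-1, 9 were tested, of which 2 rose, 3 fell and 4 were not called (27.2% of all genes tested rose and 40.5% fell). In DU145 against BPH-1, 3 of 9 rose and 4 fell (30.3% and 32.3% of all genes). In PC3 against DU145, 2 of 8 rose and 4 fell (20% and 28.3%). Their median log2 fold changes were -0.04, -0.22 and -0.11. The ligase gene NEDD4 fell most, from an FPKM of 6.08 ± 0.79 in BPH-1 to 2.77 ± 2.09 in DU145 and 0.239 ± 0.165 in PC3 (SD, n = 4 each; PC3 against BPH-1 log2 fold change -2.52, limma adjusted p = 4.29e-07). NEDD4L, the ligase of ENaC, stayed between 3.57 and 5.37 in its line means and was not called in any comparison.

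Of the proteases that cut ENaC and their inhibitors, all 11 were tested against BPH-1. In PC3, 3 rose and 8 fell (27.2% and 40.5% of all genes did), with a median log2 fold change of -1.01. In DU145, 0 rose, 9 fell and 2 were not called (30.3% of all genes rose and 32.3% fell), with a median of -1.19. Some of these falls were built into the filter, so the counts and medians are no independent support. TMPRSS4, TMPRSS11E and PRSS22 had 0 reads in PC3. Over all DU145 libraries PRSS8, TMPRSS2, TMPRSS4, TMPRSS11E and PRSS22 had 7, 3, 6, 2 and 4 reads. TMPRSS11E, a transmembrane serine protease of squamous epithelium, fell most. Its FPKM was 22.2 ± 5.6 in BPH-1 (SD, n = 4), against at most 0.0515 in a DU145 library and 0 in PC3. ST14 (matriptase) had 38.9 ± 14.5 in BPH-1, 0.977 ± 0.289 in DU145 and 1.22 ± 0.21 in PC3 (SD, n = 4 each), and PRSS8 (prostasin), the channel-activating protease, had 6.25 ± 2.15, 0.0209 ± 0.0282 and 0.183 ± 0.095. ST14 and PRSS8 are named outside the fixed rule, as textbook ENaC proteases, after their values were seen. The members that rose in PC3 were PLAU (urokinase), the inhibitor gene SPINT2 and TMPRSS2, a luminal prostate protease. PLAU was the most abundant of the list, with an FPKM of 213 ± 19 in PC3 and 113 ± 37 in BPH-1 (log2 fold change 0.97, limma adjusted p = 0.00283), and TMPRSS2 had 2.38 ± 0.50 and 0.137 ± 0.067. FURIN, which cuts alpha and gamma ENaC in the Golgi, was lower in PC3 (8.60 ± 0.76) than in BPH-1 (23.2 ± 2.5, log2 fold change -1.33, limma adjusted p = 6.45e-06) and not called in DU145 (21.8 ± 6.9). PC3 against DU145 had 7 tested, of which 5 rose and 1 fell (20% and 28.3% of all genes tested did). TMPRSS2, with 3 reads over all DU145 libraries, could only rise under the filter. SPINT2 differed most, with 22.3 ± 4.8 in PC3 and 2.75 ± 0.47 in DU145 (SD, n = 4 each; log2 fold change 2.62, limma adjusted p = 4.82e-06). PC3, the line with beta and gamma ENaC, thus had lower ST14, PRSS8 and FURIN than BPH-1, but higher PLAU and TMPRSS2. ST14 and PRSS8 were low in DU145 as well, so their fall was not particular to PC3. The inhibitor genes SPINT1 and SERPINE2 also fell in PC3 (log2 fold changes -1.01, limma adjusted p = 0.00205, and -0.71, limma adjusted p = 0.0064).

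Genes of the hormone response and trafficking of ENaC moved in both directions. Of 14, 13 were tested in PC3 against BPH-1, of which 4 rose and 6 fell (27.2% and 40.5% of all genes tested did). In DU145 against BPH-1, 3 of 12 rose and 5 fell (30.3% and 32.3%). In PC3 against DU145, 7 of 13 rose and 1 fell (20% and 28.3%). With shares this large, the counts are no result about the list. The medians of the list were -0.11, -0.51 and 0.40. WNK4, a kinase of the distal nephron that acts on sodium and chloride transport, rose most in PC3. Its FPKM was 11.1 ± 1.2 there, 1.75 ± 0.34 in DU145 and 0.583 ± 0.25 in BPH-1 (SD, n = 4 each), with a log2 fold change of 2.94 against BPH-1 (limma adjusted p = 2.07e-07) and 2.14 against DU145 (limma adjusted p = 5.68e-06). STX1A, a syntaxin that binds ENaC, rose in both (2.5 in PC3, limma adjusted p = 4.76e-07, and 1.75 in DU145, limma adjusted p = 4.43e-05). TSC22D3, the glucocorticoid-induced gene GILZ, rose in DU145 (1.86, limma adjusted p = 2.80e-05) and was not called in PC3 (-0.11, limma adjusted p = 0.273). The aldosterone receptor gene NR3C2, named outside the rule after its values were seen, had an FPKM of 0.435 ± 0.185 in PC3 (SD, n = 4), at most 0.0342 in a BPH-1 library and at most 0.0154 in a DU145 library. SGK1, the aldosterone-induced kinase that restrains NEDD4L, also outside the rule, went the other way, with 2.48 ± 0.73 in BPH-1, 0.437 ± 0.218 in DU145 and 0.798 ± 0.108 in PC3. The abundant members USP10 and WNK1 were, in PC3 against BPH-1, lower (-0.90, limma adjusted p = 0.000872) and not called (0.02, limma adjusted p = 0.951).

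**Figure D5:**
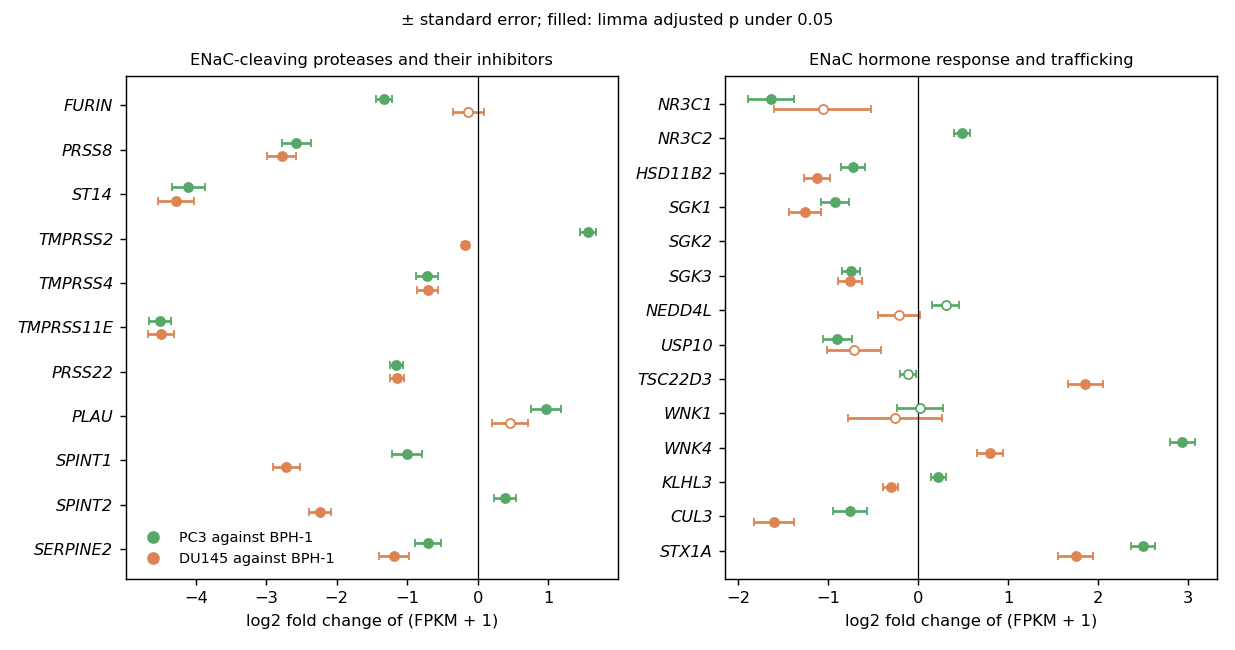
Log2 fold change of (FPKM + 1) (horizontal axis, points with bars for the standard error) of the ENaC-cleaving proteases and their inhibitors (left) and of the hormone response and trafficking genes (right) in PC3 and in DU145 against BPH-1, filled where the limma adjusted p was under 0.05. Most proteases lie below 0 in both lines, with TMPRSS2, PLAU and SPINT2 above 0 in PC3, and WNK4 and STX1A lie above 0 in both.

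Other sodium-handling genes give the setting of these channels. Of 5 acid-sensing channels, relatives of ENaC, 2 were tested in each comparison. ASIC1 rose in DU145 (FPKM 3.34 ± 0.75) and in PC3 (3.10 ± 0.83) from 0.811 ± 0.024 in BPH-1 (SD, n = 4 each), with log2 fold changes of 1.24 (limma adjusted p = 7.80e-05) and 1.16 (limma adjusted p = 8.00e-05). ASIC3 rose in DU145 alone by the same test (0.13, limma adjusted p = 0.0401), and the difference between the lines was not called (-0.07, limma adjusted p = 0.392). Of 14 sodium pump subunits, 6 were tested in PC3 against BPH-1 (2 rose, 3 fell), 9 in DU145 against BPH-1 (3 rose, 1 fell) and 7 in PC3 against DU145 (0 rose, 4 fell). FXYD3 fell most against BPH-1 (-2.10 in PC3, limma adjusted p = 8.36e-05, and -2.20 in DU145, limma adjusted p = 6.47e-05). Of 9 sodium exchangers and coupled transporters, 6 were tested in each comparison. Against BPH-1, 1 rose and 4 fell in PC3, and 0 rose and 4 fell in DU145. Between PC3 and DU145, 1 rose and 1 fell. Beside the counts of these lists, 27.2% of all genes tested rose and 40.5% fell in PC3 against BPH-1. The shares were 30.3% and 32.3% in DU145 against BPH-1, and 20% and 28.3% in PC3 against DU145. The cotransporter gene SLC12A2 (NKCC1) fell from 5.38 ± 0.61 in BPH-1 to 0.571 ± 0.410 in DU145 (log2 fold change -2.06, limma adjusted p = 1.82e-05) and 1.27 ± 0.56 in PC3 (-1.52, limma adjusted p = 6.78e-05).

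The genes most like each member in pattern were sought among 13350 genes with a mean FPKM of at least 1 in some line, by Pearson's r on log2(FPKM + 1) over the 12 libraries. These values share libraries and 3 lines and are a description. SCNN1G was among the 3 nearest genes to SCNN1B (r = 0.987), and SCNN1B among the 3 nearest to SCNN1G. FAM131B was near both (0.996 with SCNN1B and 0.973 with SCNN1G), and CEACAM6, an adhesion molecule gene of epithelial tumours, was nearest to SCNN1G (0.990). Nearest to SCNN1A were C1R (0.982), a complement protease gene, and the squamous serpins SERPINB4 and SERPINB3. SCN9A lay nearest to IL36G (0.995), an epidermal cytokine gene, and GBP4 (0.993), both of which had a mean FPKM under 0.03 in the PCa lines. SCN8A lay nearest to AMOT (0.975), FRMD3 and DYNC1H1, SCNN1D to MAP4K2 (0.989), SLC45A1 and DDAH2, and SCN2A to LCN2 (0.936), HOXD4 and MIRLET7A2.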

How the data were processed

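RNA of BPH-1, DU145 and PC3 cells was extracted with TRIzol and sequenced by a company, with 4 libraries per line. The submitters' processing notes name CASAVA 1.8, HISAT2 2.1.0 and GRCh38, and the counting program, annotation, strand and filters are not given in the sources used here. The authors deposited 1 table of normalized values for 58302 genes. Its header names no unit. The values deposited by the authors have the form of FPKM, reads divided by gene length and library total before deposit. Low values were whole multiples of 1 read (92.2% to 93.6% per library, within 0.02 of a read and up to 50 reads) when length was the sum of the distinct exons of a gene in GENCODE 29, which gave the depth. No length was found for 263 genes, which were not tested. The length of SCN9A was taken from the steps of its own values.

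limma 3.58.1 (R 4.3.3, intensity trend) was fitted to log2(FPKM + 1) with only the 2 lines compared. The filter asked for 10 reads, scaled to the median depth, in at least 4 libraries and 15 reads in all, and genes were called at a Benjamini-Hochberg adjusted p under 0.05 over all genes tested. Exact permutation tests were two-sided. The fit was tried on simulated data, where changes were placed only in genes with ample reads. Changes in genes with few reads, as most members had in some line, were not covered. Python 3.11.15 with numpy 2.4.6, pandas 2.3.3, scipy 1.17.1 and matplotlib 3.10.9 was used.

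The members, gene lists and markers were chosen with earlier results of these data known. Named were all members, from each list the 3 genes with the highest mean FPKM and the called gene with the largest change per comparison, and every other alpha or beta subunit above 3 reads, with not every name repeated in the text. Results of some of these genes are left out here. Between replicates the chi-square per gene was 17.4 to 215, far above counting noise, so no library was a duplicate. Alternatives were another pseudocount (0.1), no filter or a stricter one, a replicate block, 1 fit over all 3 lines, library rescaling to the same summed FPKM, upper-quartile and median-of-ratios scaling, voom fitted to the recovered reads and leaving out each library. Added after the data were seen were a GC correction and leaving out pairs of DU145 libraries.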

Additional observations from a re-analysis of the deposited data

Results flagged for a closer look

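Among 19 groups of 4 libraries tested for a library far from the others (critical value at 5% chance), 3 held one. SCN8A in PC3 replicate 4 stood at an FPKM of 0.533, where the other PC3 libraries had 1.28 to 1.39. BPH-1 replicate 4 was the only BPH-1 library with reads of SCNN1B (FPKM 0.0117, 1 read) and SCNN1G (FPKM 0.0914, 5 reads). A group with reads in only 1 library is flagged whatever their number, so the 5% does not apply to SCNN1B and SCNN1G.

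SCNN1B and SCNN1G stood apart between PC3 and DU145, with log2 fold changes of 1.37 and 1.65. Both passed the filter on low values through PC3 alone, so these are given as values without support from their test. Both were higher in 4 of 4 PC3 libraries than in any DU145 library.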

How the results depend on the processing

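Of 333 alternative values of the members' log2 fold changes, 322 kept their direction and their side of the threshold, and among the counts of calls 4 moved by more than 1.5 times. The 333 include SCNN1B, SCNN1G and SCN9A, whose direction was built into the filter, so the tally is no independent support for them. With the stricter filter of 10 reads in every library, 3 members were called in PC3 against BPH-1 and 0 of 5210 genes called in PC3 against DU145 were members, since that filter removes SCNN1B and SCNN1G. Without DU145 replicates 1 and 2, 2 members were called in DU145 against BPH-1. Leaving out 1 library gave 6 members in PC3 against BPH-1, 3 to 4 in DU145 against BPH-1 and 2 in PC3 against DU145. Below the threshold fell SCN8A in DU145 against BPH-1 with no filter (0.70, adjusted p = 0.0575 from limma), without DU145 replicate 2 (0.57) and without replicates 1 and 2 (0.68), and SCN9A without any tried pair of DU145 libraries. In PC3 against DU145, SCN8A reversed to -0.23 without DU145 replicates 1 and 3, and SCNN1D to -0.0085 without replicates 2 and 4, neither called, while SCN8A without replicates 2 and 4 (0.71, limma) and SCNN1A in the exact permutation test (p = 0.0286) passed the threshold. That permutation p is not adjusted. For the same SCNN1A difference the limma p was 0.0486 before adjustment and 0.0893 after it. The cause of the changes in SCN8A, SCN9A and SCNN1D was not tested. Rescaling to the same summed FPKM shifted the median of all genes from -0.13 to -0.28 in PC3 against BPH-1 and from -0.03 to -0.16 in DU145 against BPH-1, and no called member changed direction under any scaling. Numbers did not pair the libraries (correlations of same-numbered deviations -0.632 to 0.486), and blocking on the replicate number gave 10710, 10152 and 6657 called genes and unchanged counts of members, 6, 4 and 2. Depth limits SCN2A, SCN9A, SCNN1B and SCNN1G most, with 52 reads or fewer in a library outside PC3.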
